A study of Homo sapiens with 4 samples.

Results

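The cytosolic ribosomal protein genes were examined in U87 cells, an established human glioblastoma line, after transfection with a synthetic mimic of the PIWI-interacting RNA piR-598 or with a negative control oligo, called the NC oligo. Members were chosen by gene symbol in the platform annotation: RPL or RPS followed by a number, plus RPSA, RPLP0, RPLP1 and RPLP2, leaving out the RPS6K kinases and symbols that end in P and a number. This gave 78 genes of 20045 named on the array, read by 128 of 47318 probes. The rule used symbols and no measured value, although the gene set was taken up with earlier results of these data known. RPSA and RPLP0 were named in the rule, but no probe of theirs was used here. Each group held 2 Illumina bead arrays, described by the submitters as biological duplicates. Both oligos were given at 25 nM with RNAiMax, and total RNA was taken 24 h later. The control is sold as a negative control for microRNA inhibitors, not as a control for a mimic, and every array was of transfected cells.

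Ribosomal proteins coat and stabilise the ribosomal RNA of the small and the large ribosomal subunit, which together translate mRNA. Cells make the proteins in matched amounts, and surplus copies are degraded. Their mRNAs typically begin with a C followed by an unbroken run of pyrimidines, the terminal oligopyrimidine tract, through which mTORC1 and the RNA-binding protein LARP1 control their translation. In glioblastoma, as in other fast-growing tumours, ribosome production is a known part of the growth programme.

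Of the sequence features searched, the tract was the one found in most members' start windows, which the rule, based on symbols, did not use. RefSeq start windows on GRCh38.p14 were matched for 66 of the 78 genes, and 57 of their 78 windows (73.1%) held a tract. Of all 35116 windows in the table, 21.1% did. A tract was defined as at least 5 unbroken C or T bases, counted from a C within 5 bases of the annotated start. The base before that C was not checked, so a marked tract can be part of a longer run, as for RPL21 and RPL10A. A tract of at least 8 bases stood in 56.4% of member windows and in 5.37% of all windows. The windows shown next are examples from the genes described below, picked with and without a tract, and not a full set. Each runs from 14 bases before the annotated start to the 16th base of the first exon, the tract is in capitals, and an entry with no capitals held none by this definition.
RPLP1 (chr15:69452804-69452833, plus strand): tataggcgcgagagCCCCTTTCCTCagctg
RPL36 (chr19:5690281-5690310, plus strand): cgcgcggcgccagCCCTTCCgccacggccg
RPL10A (chr6:35468387-35468416, plus strand): gcgcaagacatgctagtCTCTTTTCCggtt
RPL21 (chr13:27251544-27251573, plus strand): ggccccgcctCTTTCCTTTCggccggaacc
RPS6 (chr9:19380221-19380250, minus strand): agcggaagttggCCCTCTTTTCCgtggcgc
RPS14 (chr5:150449724-150449753, minus strand): cgccccctcccaCTCTCTCTTTCCggtgtg
RPL41 (chr12:56116619-56116648, plus strand): ggaacttcgCCTTTCTCTCggccttagcgc
RPS29 (chr14:49598695-49598724, minus strand): cccgagcgcgcagctggcagcggtggttgt
RPL10L (chr14:46651766-46651795, minus strand): aggcgtagttaagagagcgcattttgactt
RPS27L (chr15:63157462-63157491, minus strand): agttgatgccgagcgcagatcgcttgcagc

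The tract was less frequent among the paralogs, the additional gene copies such as RPL10L and RPS27L, where 3 of 9 windows held it against 54 of 69 windows of the core and stalk genes. Searched on both strands over the 300 bases of each window, the motif CCGGAAG, a binding sequence of ETS factors, stood in 34.6% of member windows and in 10.3% of all windows. AAGATGGC, a YY1 motif, stood in 8.97% against 2.89%, and TATAAA in 7.69% against 11.5%. No CCGGAAG match overlapped an AAGATGGC match in these windows. A match is a string of letters, and its absence says nothing of the factor.

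The members were among the strongly detected genes on the array. A detection p under 0.05 was reached on all 4 arrays by 119 of the 128 probes, on 3 arrays by 2, on 2 arrays by 1 and on none by 6. Probes detected on at least 2 arrays were tested, which left 122 probes of 76 genes among 20188 tested probes. Summed over the 128 probes, the members took 4.16% and 4.07% of all deposited signal in the NC oligo group, and 4.13% and 4.07% in the mimic group, replicate 1 first as in all pairs of values given here. The shares of the groups overlapped. The mean deposited signal ran from 273.0 to 305.8 over the arrays. Of 10 markers listed for the U87 line, 8 were detected on all 4 arrays, while the glial marker GFAP and the stem cell factor SOX2 were detected on none. Of 14 markers listed for other cell types, 5 were detected on all 4 arrays. These were SNAP25 and GAD1 of the neuronal list, and CD68, AIF1 and CD14 of the microglia or leukocyte list. Another 7 were detected on none: the neuronal SYT1 and RBFOX3, PTPRC of the leukocyte list, the endothelial CDH5 and VWF, and the epithelial CDH1 and KRT19. With so few arrays the precision of each value is limited. The submitters call the arrays biological duplicates, but nothing in the labels ties them to separate cultures. The spread that p-values rest on may therefore be partly or wholly technical, and is that of these 4 samples.

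The comparison of the groups asks which ribosomal protein mRNAs differ 24 h after transfection of the mimic, and no member passed the test. Values are given as normalized log2 signal, after background correction and quantile normalization, and differences as log2 fold change, mimic minus NC oligo. With limma and Benjamini-Hochberg adjustment over all 20188 probes, 0 of 122 member probes were called at an adjusted p under 0.05, and the smallest adjusted p of a member was 0.895. Over all tested probes 0 were called (0%). At an unadjusted p under 0.05 there were 3 member probes (2.46%), against 1102 of all tested probes (5.46%). All 3 were higher with the mimic, as were 2.62% of all tested probes, and 0 were lower, against 2.84% of all tested probes. The arrays of the groups did not overlap at 48 of 122 member probes (39.3%), against 34.7% of all tested probes. Of these, 22 were higher and 26 lower with the mimic (17.1% and 17.6% of all tested probes). The share of non-overlapping probes lay near that of the whole array. The share of low unadjusted p depended on the processing. Without background correction it was 7.38% for the members (9 probes) against 5.65% for all tested probes. With an intensity trend in the limma fit it was 5.74% against 5.35%. It also differed with brightness. As reported, by brightest probe, it was 1.13% for the 709 other named genes at least as bright as the members' lower quartile. For the 57 members of that brightness it was 0%.

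Taken gene by gene, with the brightest tested probe standing for each gene, the members were spread evenly around 0. The log2 fold change was above 0 for 39 genes, below 0 for 36 and 0 for RPLP2, with a median of 0.0025. With median scaling, which also moved the median of all named genes tested down, 20 lay above and 56 below 0. The median over all 11704 named genes tested was -0.0075, with 48.2% above 0. The values ran from -0.25 for RPL10L to 0.45 for RPL21. Without background correction RPL10L, a dim probe, was at -0.07 and the lowest gene was RPL8 at -0.20, while RPL21 was at 0.44. The 95% interval stayed inside 1.5-fold up or down for 111 of the 122 member probes (91%, against 74.6% of all tested probes). By brightest probe it did so for 94.7% of the 57 members at or above the members' lower quartile of signal. For the 709 other named genes of that brightness the share was close to this, at 92.7%. The interval stayed inside 2-fold for all 122 member probes (against 99.4%). Its half-width had a median of 0.33 on the log2 scale over the 76 genes, or 1.26-fold. In bulk RNA, a loss of cells and less RNA per cell cannot be told apart, and a change shared by all transcripts would be removed by the normalization.

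**Figure D1:**
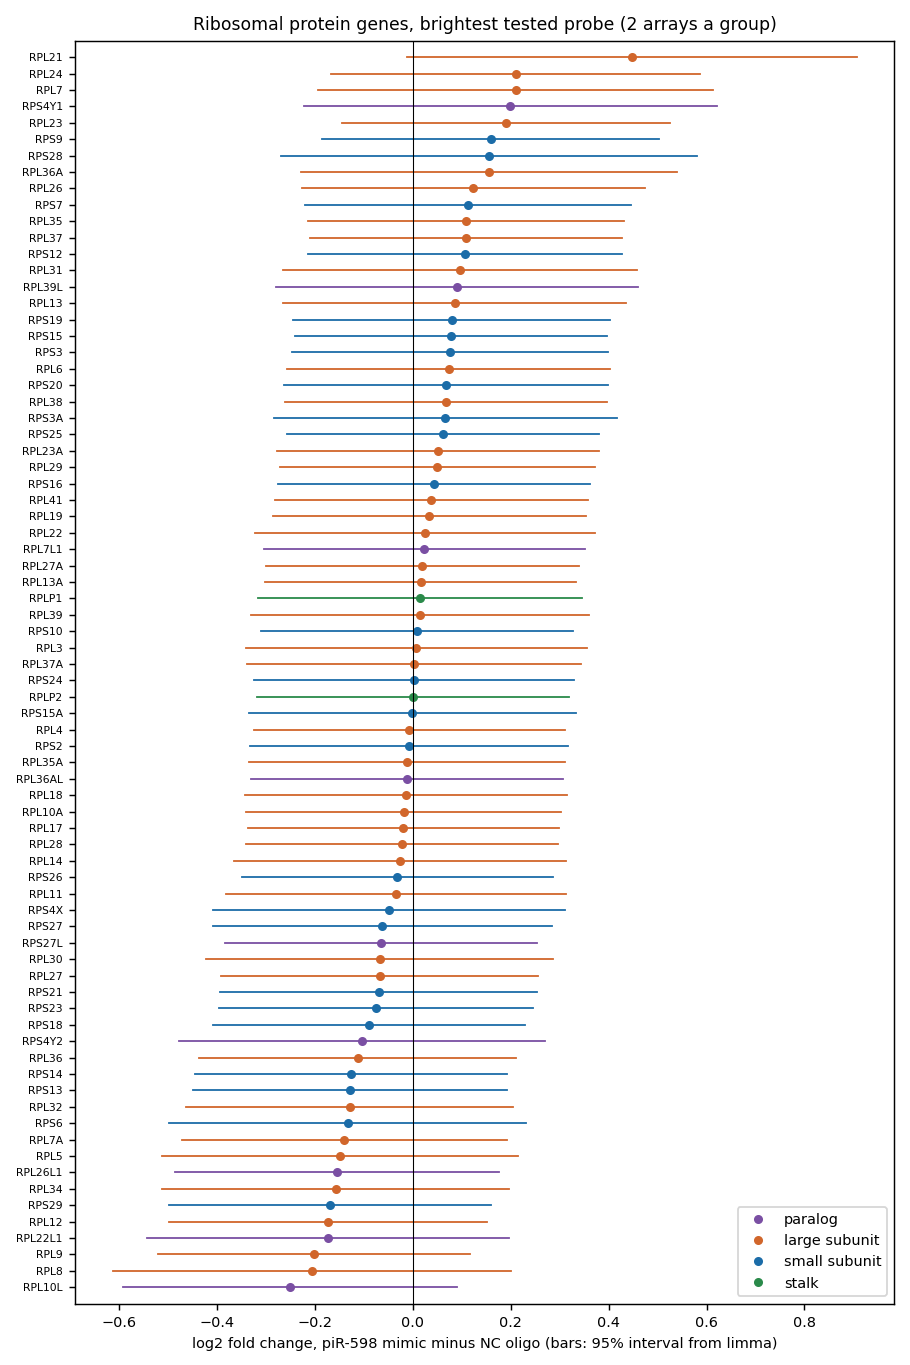
Log2 fold change (x axis, piR-598 mimic minus NC oligo) of 76 ribosomal protein genes, each by its brightest tested probe, with the 95% interval from limma as a bar and colour for the role. Points lie between -0.25 and 0.45, and every interval includes 0.

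The arrays of 1 group differed from each other at the member probes about as much as arrays of different groups. Over the 122 probes, the log2 difference had an SD of 0.17 within the NC oligo group and 0.16 within the mimic group. For the 4 pairs across groups it was 0.15, 0.18, 0.19 and 0.21. Across all tested probes the same 6 pairs had SDs between 0.23 and 0.29. The value of 0.21 was that of NC oligo array 1 against mimic array 1.

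The small subunit genes, 25 in number and all tested, had a median log2 fold change of 0.0022, with 13 above 0 and 12 below. None passed the test (smallest limma adjusted p = 0.95). Their arrays did not overlap for 12 of the 25 (48%), 6 in each direction, against 34.5% of all named genes tested. RPS9, which contacts the ribosomal RNA early in assembly of the subunit, had 11.84 and 11.83 on the NC oligo arrays and 12.12 and 11.87 on the mimic arrays. Mimic array 1 stood highest, and the log2 fold change of 0.16 ± 0.15 (SE) was 0.04 without it. Here and below, values with 1 array left out are mostly given for the array whose removal shrinks the difference. With 2 arrays a group, removal of the other array of that group generally enlarges it. RPS28 had 10.89 and 10.60 with the NC oligo and 11.12 and 10.69 with the mimic, so its groups overlapped. Its log2 fold change of 0.16 ± 0.19 (SE) was -0.06 without mimic array 1. RPS12 was at 13.72 and 13.64 with the NC oligo and at 13.80 and 13.77 with the mimic, close to the top of the range, at a log2 fold change of 0.11 ± 0.14 (SE), and 0.07 without NC oligo array 2. The fourth value above 0 by the rule for named genes was that of RPS7, at 0.11 ± 0.15 (SE) with overlapping arrays, and 0.03 without NC oligo array 1.

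On the other side of 0, RPS29, a zinc-binding protein of the subunit head, had 13.59 and 13.58 on the NC oligo arrays and 13.33 and 13.49 on the mimic arrays. Both mimic arrays were lower, by a log2 fold change of -0.17 ± 0.14 (SE), and -0.09 without mimic array 1. RPS13 had 12.85 and 12.84 with the NC oligo and 12.76 and 12.68 with the mimic, a log2 fold change of -0.13 ± 0.14 (SE). RPS14, whose loss of 1 copy underlies the anaemia of the 5q- syndrome, had 13.25 and 13.26 with the NC oligo and 13.16 and 13.10 with the mimic. Its groups did not overlap, and neither did those of its other probe, both with a log2 fold change of -0.13. RPS6, the substrate of the S6 kinases, had 12.26 and 11.95 with the NC oligo and 12.03 and 11.91 with the mimic. Its groups overlapped, and its log2 fold change of -0.13 ± 0.16 (SE) was 0.02 without NC oligo array 1. RPS19, the gene most often mutated in Diamond-Blackfan anaemia, had 13.55 and 13.43 with the NC oligo and 13.57 and 13.58 with the mimic, a log2 fold change of 0.08 ± 0.14 (SE), and 0.015 without NC oligo array 2.

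**Figure D2:**
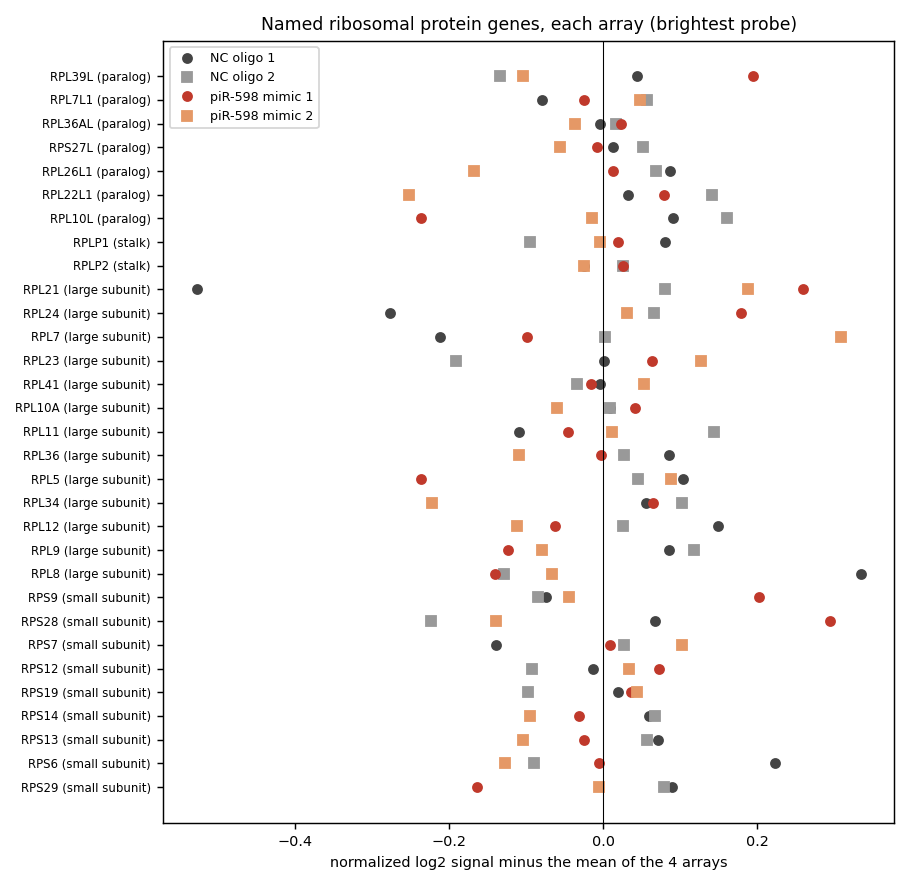
Normalized log2 signal of each array minus the mean of the 4 arrays (x axis) for named ribosomal protein genes, brightest probe, with circles and squares for replicates 1 and 2. The arrays of a group are often as far apart as the groups, as for RPL21, where NC oligo array 1 stands alone at 11.21 and the other arrays lie between 11.81 and 11.99.

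Of the 41 large subunit genes, 40 were tested, with a median log2 fold change of 0.01, 22 above 0 and 18 below. None passed the test (smallest limma adjusted p = 0.895), and the arrays did not overlap for 9 of the 40 (22.5%, against 34.5% of all named genes tested). RPL21 had the highest value of any member gene. Its deposited signals were 2599 and 3790 with the NC oligo, then 3875 and 3817 with the mimic. NC oligo array 1 was low, while NC oligo array 2 was close to the mimic arrays, and the groups did not overlap. The normalized values were 11.21, 11.81, 11.99 and 11.92 in the same order, with a log2 fold change of 0.45 ± 0.20 (SE). It was 0.14 without NC oligo array 1 and 0.76 without NC oligo array 2. The adjusted p was 0.895 (limma).

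RPL24, a protein at the face between the subunits, also had its lowest value on NC oligo array 1. It had 12.64 and 12.99 with the NC oligo and 13.10 and 12.95 with the mimic, and its log2 fold change of 0.21 ± 0.17 (SE) was 0.04 without NC oligo array 1. RPL7 had 8.29 and 8.50 with the NC oligo and 8.40 and 8.81 with the mimic, with overlapping groups and a log2 fold change of 0.21 ± 0.18 (SE), and 0.0046 without mimic array 2. RPL23, which can bind the p53 inhibitor MDM2, had 11.05 and 10.86 with the NC oligo and 11.11 and 11.17 with the mimic. Both mimic arrays were higher, at a log2 fold change of 0.19 ± 0.15 (SE), and 0.10 without NC oligo array 2.

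Among the large subunit genes below 0, RPL9 had 12.89 and 12.93 on the NC oligo arrays and 12.69 and 12.73 on the mimic arrays. Here the replicates stood close and the groups did not overlap, at a log2 fold change of -0.20 ± 0.14 (SE), and between -0.23 and -0.17 with any array left out. The SDs of its replicates were 0.02 with the NC oligo and 0.03 with the mimic, below the SE, which leans on the shared variance. Its other probes had -0.17 and 0.0024. RPL12, at the base of the stalk, had 12.33 and 12.20 with the NC oligo and 12.11 and 12.07 with the mimic, a log2 fold change of -0.17 ± 0.14 (SE), and -0.11 without NC oligo array 1. RPL8, which lies near the peptidyl transferase centre, had 12.63 and 12.16 with the NC oligo and 12.15 and 12.22 with the mimic. NC oligo array 1 alone was high, and without it the log2 fold change of -0.21 ± 0.18 (SE) was 0.03. RPL34 had 10.19 and 10.24 with the NC oligo and 10.20 and 9.91 with the mimic, and its log2 fold change of -0.16 ± 0.16 (SE) was -0.015 without mimic array 2, while its other probe had -0.22 with groups that did not overlap.

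RPL5 and RPL11 join the 5S ribosomal RNA before it enters the large subunit, and bind MDM2 when assembly fails. RPL5 had 10.88 and 10.82 with the NC oligo and 10.54 and 10.86 with the mimic. Only mimic array 1 was low, and without it the log2 fold change of -0.15 ± 0.16 (SE) was 0.01. RPL11 had 12.93 and 13.18 with the NC oligo and 12.99 and 13.05 with the mimic, with -0.04 ± 0.15 (SE), and its other probe had -0.03. RPL41, which encodes a very short peptide, had 13.76 and 13.73 with the NC oligo and 13.75 and 13.81 with the mimic, with 0.04 ± 0.14 (SE). The arrays of the groups overlapped at these 3 genes, and none of the 3 was called (limma adjusted p of at least 0.966).

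The stalk recruits translation factors to the large subunit and holds the acidic proteins RPLP1 and RPLP2. By its brightest probe, RPLP1 had 13.47 and 13.29 with the NC oligo and 13.41 and 13.38 with the mimic, so both mimic arrays lay between those of the NC oligo. Its log2 fold change was 0.02 ± 0.15 (SE). RPLP2 had 13.66 and 13.71 with the NC oligo and 13.71 and 13.66 with the mimic. Quantile normalization gave its arrays the same 2 values in both groups, hence a log2 fold change of 0 ± 0.14 (SE). The 95% interval of RPLP1 reached from -0.32 to 0.35 and that of RPLP2 from -0.32 to 0.32.

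Of the 10 paralogs, 9 were tested, with a median log2 fold change of -0.06, 3 above 0 and 6 below, and none passed the test (smallest limma adjusted p = 0.913). RPL10L, a retrocopy of RPL10 known from testis, lay near the detection limit. It was detected on both NC oligo arrays and on 1 of the mimic arrays. Its deposited signal was 107 and 109 with the NC oligo and 94.5 and 101 with the mimic, and its log2 fold change was -0.25 ± 0.15 (SE), and -0.14 without mimic array 1. RPL22L1, the paralog of RPL22, had 6.07 and 6.18 with the NC oligo and 6.12 and 5.79 with the mimic. Mimic array 2 alone was low, and the log2 fold change of -0.17 ± 0.16 (SE) was -0.0079 without it.

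RPL26L1 had 10.68 and 10.67 with the NC oligo and 10.61 and 10.43 with the mimic, a log2 fold change of -0.16 ± 0.15 (SE). It was -0.07 without mimic array 2, and the other probe had -0.14. RPL39L, a copy of RPL39 known from male germ cells and tumours, had 9.18 and 8.997 with the NC oligo and 9.33 and 9.03 with the mimic. Array 1 was the higher of the pair in both groups, and the log2 fold change was 0.09 ± 0.16 (SE). RPS27L, a p53 target, had 12.76 and 12.80 with the NC oligo and 12.74 and 12.69 with the mimic, with -0.06 ± 0.14 (SE). RPL36AL had -0.01 ± 0.14 (SE) and RPL7L1, related to a ribosome assembly factor of yeast, had 0.02 ± 0.14 (SE), with 0.29 at its other probe. RPS4Y1 and RPS4Y2, copies of RPS4X, were detected on 3 and 2 of the 4 arrays, just inside the limit for testing, and had log2 fold changes of 0.20 ± 0.19 (SE) and -0.10 ± 0.16 (SE).

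Where a gene had more than 1 tested probe, the probes often differed. This concerned 34 of the 76 genes, with 80 probes. In 15 of the 34 (44.1%) some probes lay above and others below 0, and the same held for 49.1% of all 2978 named genes with more than 1 tested probe. The median gap between the lowest and the highest probe of a gene was 0.14 for the members and 0.17 for all such genes. RPL11, RPS14 and RPL26L1 had the smallest gaps among the members.

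All 3 member probes with an unadjusted p under 0.05 were of this kind, each a dimmer probe of a gene whose brightest probe was close to 0. The dim probe of RPL36 had a deposited signal of 153 and 151 with the NC oligo and 174 and 163 with the mimic. Both mimic arrays were higher although the array means were lower there, and the log2 fold change was 0.50 ± 0.16 (SE; unadjusted p = 0.0134, limma adjusted p = 0.895). It was 0.33 without mimic array 1 and 0.26 without background correction. The brightest probe of RPL36 had a log2 fold change of -0.11 ± 0.14 (SE), with 12.48 and 12.42 on the NC oligo arrays and 12.39 and 12.28 on the mimic arrays. The arrays of the groups did not overlap at either probe, and the probes pointed in opposite directions.

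For RPLP1 the dim probe had a deposited signal of 298 and 329 with the NC oligo and 352 and 374 with the mimic. It had a log2 fold change of 0.48 ± 0.15 (SE; unadjusted p = 0.0113, limma adjusted p = 0.895), beside 0.11 and 0.02 for the other probes of the gene. For RPL10A the dimmer probe had 1617 and 2016 with the NC oligo and 2043 and 2305 with the mimic. Its log2 fold change was 0.44 ± 0.17 (SE; unadjusted p = 0.0289, limma adjusted p = 0.895), and 0.25 without NC oligo array 1, while the brightest probe had -0.02 ± 0.14 (SE). Ribosomal protein genes have many near-identical processed pseudogenes, so which transcripts each probe reads is uncertain, and the part this has in the gaps was not tested.

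**Figure D3:**
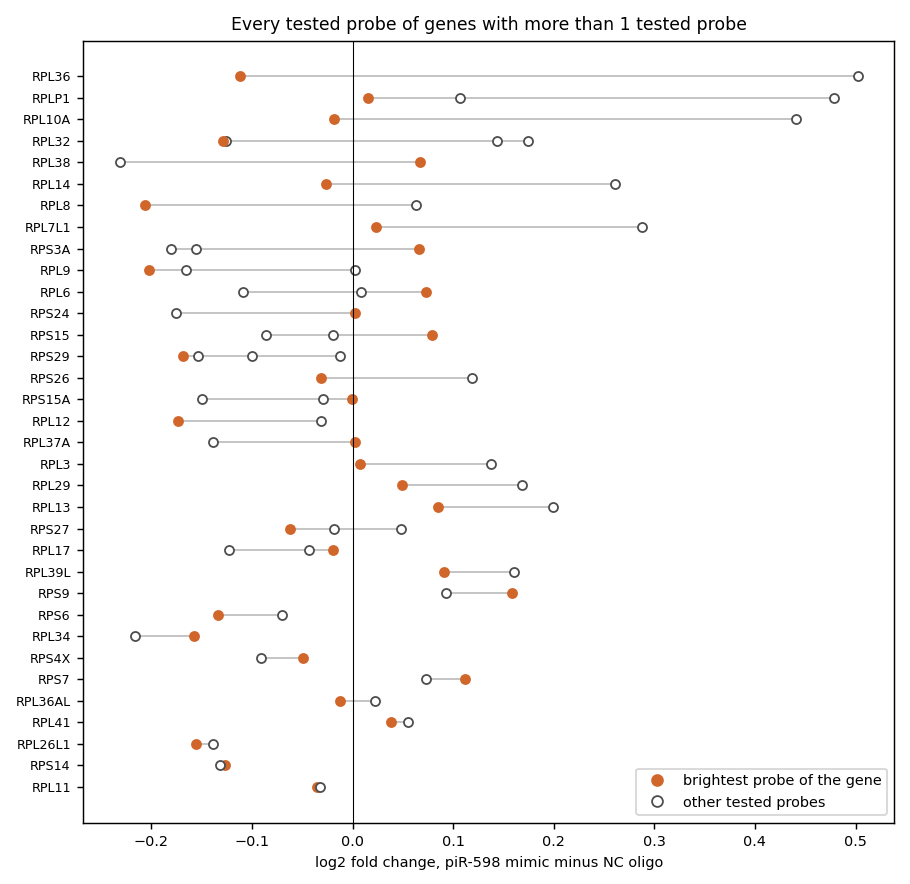
Log2 fold change (x axis, piR-598 mimic minus NC oligo) of every tested probe of the 34 ribosomal protein genes with more than 1 tested probe, filled for the brightest probe of a gene and open for the others. The widest gaps are those of RPL36, RPLP1 and RPL10A, each with a dimmer probe at 0.44 or above and the brightest probe near 0.

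Detection also depended on the probe. RPL10, a core protein of the large subunit, had 2 probes, and neither was detected on any array (lowest detection p 0.127). RPL3L, a paralog known from muscle, had 1 probe, also detected on none. These 2 genes have no fold change here. RPL36A, RPL37 and RPS27L each had 1 probe detected on no array and another detected on all 4. At RPL41 the tested probes had deposited signals from 13480 to 14518 and from 284 to 332, so a probe's signal cannot be read as the level of its gene.

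The members' fold changes were also set beside those of all tested probes of the same brightness, since the spread of log2 fold changes narrowed as signal rose. Of the 122 member probes, 112 lay within the 5th to 95th percentile of all tested probes in the same 0.5-wide step of log2 signal, 6 lay above and 4 below. By construction about 5% of all tested probes lie above such a band and 5% below. The member probes were among those that set it, so the count is a description only. Among the 709 other named genes at least as bright as the members' lower quartile, the median log2 fold change was 0.0021, with 0 called. Arrays did not overlap for 38.6% of them, and for 33.3% of the 57 members of that brightness.

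**Figure D4:**
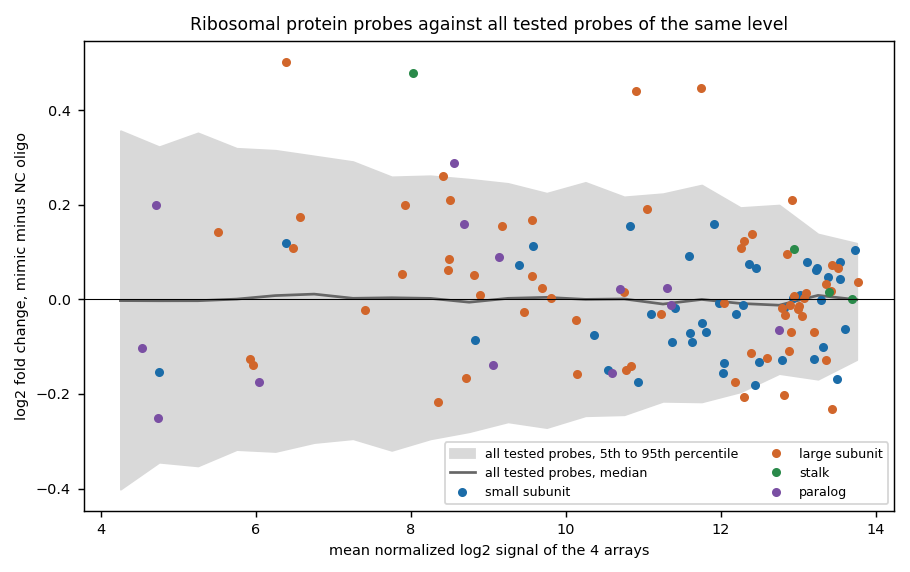
Log2 fold change (y axis) against mean normalized log2 signal of the 4 arrays (x axis) for the 122 tested ribosomal protein probes, coloured by role, with the 5th to 95th percentile and the median of all tested probes in grey. 112 member probes lie within the grey band, which holds most tested probes by construction and narrows toward bright probes.

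Among genes that act with the ribosomal proteins none was called. FAU, which encodes a fusion of a ubiquitin-like protein with a small subunit protein, had a log2 fold change of 0.02, and RPS19BP1, which binds RPS19, had 0.15. Another 22 genes were listed as having mRNAs with the tract, which was not looked up in their own start windows. Of these, 21 were measured, 6 above and 15 below 0, with a median of -0.05. The furthest by p were the splicing regulator HNRNPA1 at 0.33 ± 0.14 (SE) and the histone chaperone NAP1L1 at -0.25 ± 0.16 (SE). The HNRNPA1 probe was dim, with 5.90 and 5.79 on the NC oligo arrays and 6.23 and 6.11 on the mimic arrays. HNRNPA1 was at 0.15 without background correction, and NAP1L1 at -0.11 without mimic array 1. Of 47 ribosome assembly genes 43 were measured, 18 above and 25 below 0, with a median of -0.05.

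SBDS, which helps release the factor EIF6 from new large subunits, had 7.17 and 6.86 on the NC oligo arrays and 6.57 and 6.46 on the mimic arrays. Both mimic arrays were lower, with a log2 fold change of -0.50 ± 0.16 (SE; unadjusted p = 0.0122, limma adjusted p = 0.895), and -0.30 without background correction. RRP1, which acts in processing of ribosomal RNA in yeast, had 0.34 ± 0.15 (SE), and 0.22 without background correction. All 15 genes of RNA polymerase I transcription were measured, 7 above and 8 below 0. Among them TAF1B and RRN3, which bring the polymerase to the ribosomal RNA promoter, had -0.37 ± 0.16 (SE) and -0.24 ± 0.17 (SE), and -0.21 and -0.04 without mimic array 1. Without background correction they were at -0.20 and -0.15. Of 18 genes of mTORC1 and LARP1 control 17 were measured, 9 above and 8 below 0, with the translation repressor EIF4EBP2 at 0.24 ± 0.15 (SE) and the S6 kinase gene RPS6KB1 at -0.28 ± 0.20 (SE). Without mimic array 1 they were at 0.14 and -0.09, and RPS6KB1 was at -0.04 without NC oligo array 2. Of the 98 genes measured in these lists, 3 had an unadjusted p under 0.05 (SBDS, RRP1 and TAF1B), or 3.06% against 4.84% of all named genes tested, and 0 were called (every limma adjusted p at 0.895 or above).

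Fold changes of member genes with and without a tract at an annotated start are a description, with no test. The 52 tested genes with a tract had a median log2 fold change of 0.01, from -0.17 to 0.45, and the 13 without had -0.06, from -0.25 to 0.08. The 2 ranges overlapped, and 5 of the 13 genes without a tract were paralogs (RPL7L1, RPL10L, RPL26L1, RPS27L and RPS4Y2), with 4 small and 4 large subunit genes.

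The median of the members lay within 0.024 of that of all named genes under each processing choice. It was -0.09 with median scaling, which moved the median of all named genes tested to -0.11. Relative to that shift the members lay at 0.02, where the reported processing gave 0.0099.

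**Figure D5:**
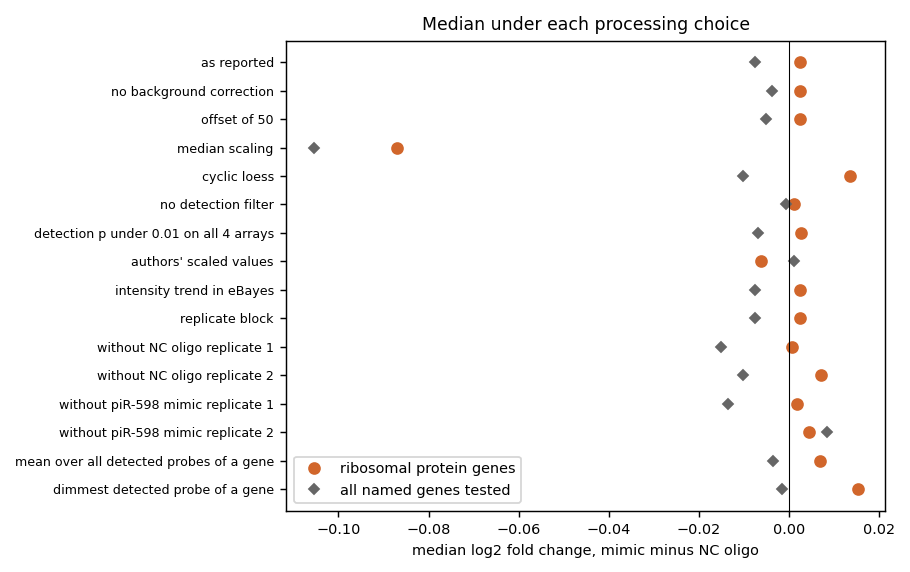
Median log2 fold change (x axis, piR-598 mimic minus NC oligo) of the tested ribosomal protein genes (circles) and of all named genes tested (diamonds) under each processing choice. Median scaling moves both to about the same extent, to -0.09 and -0.11, and the other choices keep both within 0.02 of 0.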

How the data were processed

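The deposited intensities were average bead signals per probe and array on a linear scale, each with a detection p-value beside it, per the file headers. They came from GenomeStudio 2011.1, per the submitters' processing notes. A second table deposited by the authors held the same intensities times 1 constant per array, with every array mean at 290.9; it is linear, is not centred and holds no ratios. It was an alternative only. Other steps are not given in the sources used here.

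Groups came from sample titles. Signals were background-corrected with normexp (negative controls inferred from detection p, offset 16), quantile normalized and taken to log2 by the steps of neqc (limma 3.58.1 under R 4.3.3). Testing was limited to probes that 2 or more of the 4 arrays detected (p under 0.05), and used lmFit and eBayes, two-sided, with Benjamini-Hochberg adjustment over all 20188 tested probes. The prior had 6.74 degrees of freedom. Intervals are 95%. Gene names came from the platform annotation (30112 probes with 1 symbol, 8 with several, 17198 with none).

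Named genes were, per subunit, the 4 smallest unadjusted p in each direction, all stalk genes and paralogs, RPL5, RPL11, RPS6, RPS19, RPS14 and RPL41, the 3 genes with the widest gap between probes, members next to the detection limit, and 2 genes per related list. RPSA and RPS27A were also listed, with no probe used here. The members and lists were chosen with earlier results of these data known. The test code was checked on data simulated from the variances fitted here. That check does not show whether changes of the members' size would be called. Alternatives changed the background step (none, or an offset of 50), the scaling (median, cyclic loess or the authors' table) or the filter (none, or detection below 0.01 on every array). Others added an intensity trend or the replicate number as a block, took another probe of a gene, or left out 1 array.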

Additional observations from a re-analysis of the deposited data

How the results depend on the processing

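No ribosomal protein probe was called under any of the 13 alternatives tried. Over all tested probes, 0 were called under every alternative that kept all 4 arrays, and from 0 to 2 when 1 array was left out (2 when NC oligo replicate 2 was dropped and 1 when mimic replicate 2 was, none of them a member). An unadjusted p under 0.05 was reached by 2.46% of member probes and 5.46% of all tested probes as reported, by 7.38% and 5.65% without background correction, 4.92% and 5.35% with an offset of 50, and 5.47% and 5.42% without the detection filter. The shares were 5.74% and 6.44% on the authors' scaled intensities, 5.74% and 5.35% with an intensity trend, 2.46% and 7.39% with median scaling, 3.28% and 7.12% with the replicate block, and from 0.826% to 2.48% against 2.13% to 11.8% with 1 array left out. The members' median log2 fold change was -0.087 with median scaling, 0.013 with cyclic loess, -0.0062 on the authors' scaled intensities and 0.015 with the dimmest probe of each gene, against 0.0025 as reported and a spread between replicates of 0.0059. With the replicate block it was 0.0025, and 0 probes were called, with a smallest adjusted p of 0.682 (limma). Deviations of same-numbered arrays from their group means correlated at 0.15 across probes. The arrays share only a number.

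With median scaling the sign turned for RPS7 (-0.018), RPLP1 (-0.034), RPL7L1 (-0.073), RPL39L (-0.037) and FAU (-0.073), and on the authors' scaled intensities for RPS4Y2 (0.011). With 1 array left out the log2 fold change ran from -0.0069 to 0.048 for FAU, from -0.068 to 0.036 for RPL10A, from -0.16 to 0.084 for RPL11, from -0.045 to 0.019 for RPL36AL, from -0.061 to 0.24 for RPL39L, from -0.31 to 0.014 for RPL5, from -0.042 to 0.093 for RPL7L1, from -0.44 to 0.028 for RPL8, from -0.077 to 0.11 for RPLP1, from -0.060 to 0.38 for RPS28, from -0.033 to 0.43 for RPS4Y1, from -0.22 to 0.033 for RPS4Y2 and from -0.29 to 0.021 for RPS6. The cause of these turns was not tested. Of the 42 named genes with a value other than 0, 22 kept their sign but shrank by over 1.5 times with some array left out, as did 10 without background correction and 15 on the authors' scaled intensities. Nearness to background limits RPL10L, RPS4Y1 and RPS4Y2. The dim probes of RPL36, RPLP1 and RPL10A stayed above 0 under the 13 alternatives, the lowest value being 0.25 for RPL10A without NC oligo replicate 1.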
